A study of Mus musculus with 15 samples.

Results

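Lung tissue of transgenic mice that looked unaltered was compared with lung tissue of non-transgenic littermates, a comparison that asks which transcripts differ in transgenic lung outside its dysplastic foci. The transgene, SP-C/c-raf, places c-raf under the promoter of surfactant protein C, which is active in alveolar type 2 cells, and the mice were kept on the C57BL/6 background. The comparison used 10 of the 15 arrays of the series, chosen by their titles. The 5 transgenic unaltered arrays come from mice aged 5 to 7 months that also carried dysplasia, and the 5 non-transgenic arrays come from mice aged 7 to 10 months, so that genotype and age cannot be told apart. All tissue was cut from frozen lung sections by laser, and RNA was amplified and hybridised to Affymetrix Mouse Genome 430 2.0 arrays, 1 array per sample. Arrays are called transgenic 1 to 5 and non-transgenic 1 to 5 after the numbers in their titles. The title of transgenic 2 was corrected by the submitters from another group to unaltered transgenic tissue, while a further entry of the same sample reads tumor. The remaining 5 arrays of the series hold dysplastic foci of the transgenic mice, and their signals are given only as side-by-side values.

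The c-Raf kinase relays signals from Ras to Mek and Erk, and Erk activity turns on ligands of the EGF receptor as well as feedback inhibitors of the pathway. Alveolar type 2 cells make surfactant, which is rich in lipid and is cleared in part by alveolar macrophages, and they can take up an injured state with high expression of acute phase proteins and simple keratins. Alveolar macrophages depend on the cytokine Csf2 and handle lipid through lysosomes and the cholesterol exporter Abcg1.

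The unit of every value is the signal, a linear measure of intensity that the authors scaled on each array to a target of 500. A probe set was tested when its mean signal over the 15 arrays was above 100, so that it could pass through its dysplasia signal alone. This limit was passed by 21658 probe sets, and 19226 of them carry 1 gene name, for 11604 genes. The log2 change is the difference between group means of log2(signal + 50), transgenic unaltered minus non-transgenic, and the ratio is that of the mean signals. A probe set was called higher or lower when its adjusted p was under 0.05 by limma. Signals below 100 lie near the background of the array, so that ratios over such a base are not firm in size. Mean signal per array ran from 692 to 762. The tissue label was checked on its defining markers, and Sftpc, Sftpb and Sftpd of type 2 cells, Ager of type 1 cells and Scgb1a1 of club cells all had high mean signals in both groups, the lowest being 16519 for Sftpb in non-transgenic tissue. In tissue of mixed cells, a lower signal from fewer cells of a type and from less RNA per cell cannot be told apart.

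Sex was unevenly spread. Xist, the RNA that coats the inactive X chromosome, had a signal of 12007 on transgenic 3 and between 62.2 and 95.8 on the other transgenic arrays, so that 4 of the 5 transgenic mice were male. It was 114 on non-transgenic 1 and between 11506 and 15052 on the other non-transgenic arrays, so that 1 of those mice was male. The 5′ to 3′ signal ratio of the actin control, a measure of RNA integrity, was lowest on transgenic 5 (12.5%) and non-transgenic 5 (14.1%) and ran up to 72.8% on non-transgenic 2. In a principal component analysis of the 10 arrays, the component that placed every transgenic array above 10.8 and every non-transgenic array below -10.9 was the second one, with 15.1% of the variance. The first, with 49.3%, ran from -38.3 to 40.4 on transgenic and from -46.0 to 50.2 on non-transgenic arrays. It was highest on non-transgenic 5 and transgenic 5 and lowest on non-transgenic 2, and a link to RNA integrity was not tested.

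Most differences were rises. In transgenic unaltered tissue 254 probe sets were higher (1.17% of those tested) and 18 (0.0831%) were lower by the limma threshold given above. By single gene names, 214 genes rose and 17 fell, and the median log2 change over all tested probe sets was -0.02. By the brightest probe set of each of the 11604 genes, 1.59% were higher, 0.121% were lower and 5663 had a log2 change above 0. Among the calls, 92 of the rises had a ratio of at least 2 and 3 of the falls had a ratio of at most 0.5. Stricter limits, an adjusted p no higher than 0.001 together with a ratio no lower than 2, were passed by 9 probe sets, all higher (0.0416% of those tested). Signals of the groups did not overlap in 270 of the 272 calls, and over all tested probe sets they were higher without overlap in 3.23% and lower without overlap in 1.08%. With array number as a block the counts became 276 higher, 53 lower and 0 past the stricter limits. With log2 Xist as a covariate 106 were higher and 4 lower, and 102 of the 272 calls held.

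**Figure D1:**
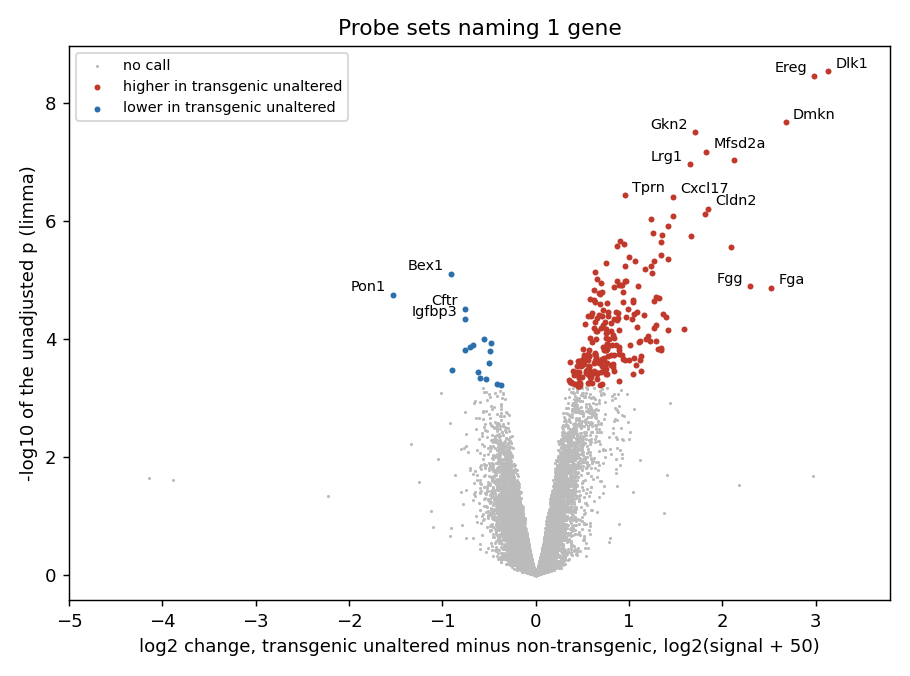
Each point is a tested probe set that names 1 gene, with its log2 change (horizontal axis, transgenic unaltered minus non-transgenic) against the -log10 of its unadjusted p from limma (vertical axis). Red points were called higher and blue points lower. Rises outnumber falls, and Dlk1 and Ereg, with log2 changes of 3.13 and 2.98, stand at the upper right.

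The 9 genes past the stricter limits were Dlk1, Ereg, Gkn2, Dmkn, St8sia6, Mfsd2a, Cxcl17, Lrg1 and Tprn, and the highest adjusted p of any of them in the fits that left 1 array out was 0.00519 by limma. Dlk1 encodes a membrane protein related to Notch ligands and is active in fetal tissues. Its signal was 579, 872, 842, 515 and 982 on transgenic 1 to 5 and 52.1, 30.6, 62.7, 32.9 and 25.3 on non-transgenic 1 to 5. All transgenic arrays lay above all non-transgenic arrays (ratio 18.6, log2 change 3.13, standard error 0.18, adjusted p = 3.71e-05, limma). The change was 3.36 between female mice (transgenic 3 against non-transgenic 2 to 5) and 2.90 between male mice (transgenic 1, 2, 4 and 5 against non-transgenic 1). Dysplasia arrays had signals of 1554 to 5723 for this gene.

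Dermokine, encoded by Dmkn, is a secreted protein of stratified and glandular epithelium. Dmkn signals were 1316, 2310, 2055, 1371 and 1816 on transgenic 1 to 5 and 243, 182, 266, 314 and 166 on non-transgenic 1 to 5. The groups were well apart (ratio 7.57, log2 change 2.68, standard error 0.19, adjusted p = 0.000152, limma). For Gkn2, a gastrokine of the stomach lining, transgenic signals of 209, 248, 155, 138 and 163 stood against 26.7, 17.7, 18.2, 22.1 and 16.2. Every non-transgenic value was thus near background, and the log2 change was 1.71 (standard error 0.13, adjusted p = 0.00017, limma). The Gkn2 signal of transgenic 2, the array with the conflicting entry, was 248, against 4540 to 7549 in dysplasia.

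St8sia6, a sialyltransferase, rose in all 3 of its tested probe sets, the brightest from 196 ± 28.6 to 1046 ± 281 (SD, n = 5, ratio 5.34). Cxcl17, a chemokine of mucosal surfaces, rose from 575 ± 110 to 1673 ± 253. The signal of Tprn, which encodes taperin of sensory cell stereocilia, was 305 ± 18.8 in transgenic and 134 ± 17.7 in non-transgenic tissue. Just outside the stricter limits stood Cldn2, a claudin that forms ion pores (211 ± 55.2 against 23.0 ± 18.2), and Cd177, a surface glycoprotein best known from neutrophils (363 ± 101 against 65.2 ± 14.8). Their adjusted p was 0.00134 and 0.0014 by limma. Of 6 neutrophil markers tested Cd177 alone was called, and S100a8 and S100a9, the abundant granulocyte proteins, had log2 changes of -0.50 and -0.66 without a call.

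**Figure D2:**
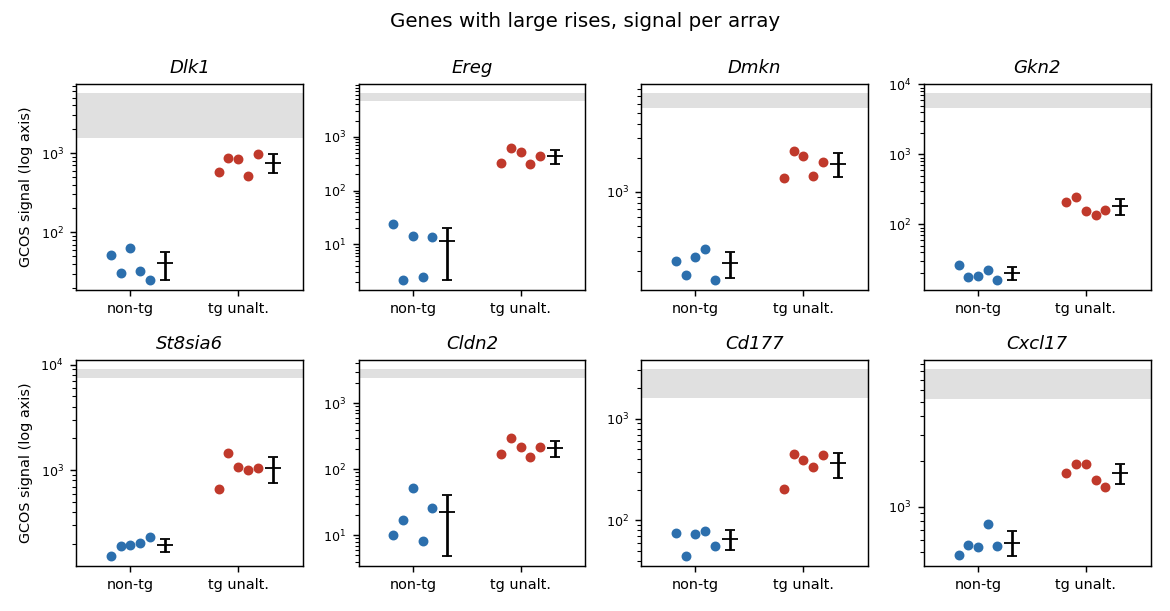
Signal per array (log axis) of 8 genes in non-transgenic (blue) and transgenic unaltered tissue (red), with the mean and SD of 5 arrays in black and the range of the 5 dysplasia arrays as a grey band. In each gene all red points lie above all blue points and below the dysplasia band.

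Further members of the Dlk1 locus rose with it. The imprinted list held 15 tested genes, of which 4 were called higher (Dlk1, Meg3, Rian and Mirg, all of 1 cluster) and 0 lower, against 1.59% higher and 0.121% lower over all genes tested by their brightest probe set. Rian, a maternally expressed non-coding RNA, had signals of 830, 1285, 986, 746 and 863 in transgenic and 372, 330, 302, 240 and 284 in non-transgenic tissue. These did not overlap (log2 change 1.47, standard error 0.15, adjusted p = 0.0014, limma), although only 1 of 3 probe sets of Rian was called. Meg3, another maternally expressed non-coding RNA, was called in 4 of 9 probe sets, and its brightest rose 2.57-fold, from 592 ± 126 to 1518 ± 481. Mirg, a host transcript of microRNAs, had 97.8 ± 18.8 against 48.6 ± 13.2, both below 100, with a mean of 838 in dysplasia. Its call held in 1 of the 10 fits without 1 array (adjusted p = 0.118 without non-transgenic 3, limma). It was lost with array number as a block (adjusted p = 0.064, limma). Imprinted genes of other loci were not called, among them Igf2 with a log2 change of -0.36 and Peg3 with -0.57.

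Among genes of the EGF receptor system, the ligands Ereg and Areg rose and no receptor or inhibitor was called. Of 13 tested 2 were higher and 0 lower, against 1.59% and 0.121% of all genes tested. Epiregulin, the product of Ereg, was near background in every non-transgenic sample, at 24.0, 2.21, 14.1, 2.44 and 13.8. On transgenic 1 to 5 its signal was 331, 625, 513, 313 and 436. The transgenic arrays were all higher, with a log2 change of 2.98 (standard error 0.18, adjusted p = 3.71e-05, limma), 3.28 between females and 2.64 between males. Areg, the gene of amphiregulin, had signals of 334, 496, 264, 238 and 274 in transgenic and 127, 185, 153, 103 and 127 in non-transgenic tissue. The groups did not overlap (ratio 2.32, log2 change 0.95, standard error 0.18, adjusted p = 0.027, limma), but the call held in 4 of the 10 fits that left 1 array out (adjusted p = 0.0818 without non-transgenic 1) and was lost with Xist as a covariate (adjusted p = 0.178). The other ligands had small differences without a call, with log2 changes of 0.13 for Hbegf, 0.12 for Btc, 0.06 for Tgfa and -0.28 for Nrg2. Of the receptors, Egfr had 553 ± 97.2 in transgenic and 648 ± 82.3 in non-transgenic tissue, Erbb2 516 ± 23.9 and 418 ± 56.8, and Erbb3 1764 ± 190 and 1408 ± 159, none of them called (lowest adjusted p 0.226, limma). The feedback inhibitor Errfi1 and the inhibitor Lrig1 had log2 changes of 0.09 and 0.07.

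No tested gene of the Erk pathway lists was called. Over all genes tested 1.59% were called higher and 0.121% lower, so that 0 calls in lists of this size lie near that share. Of 12 tested genes of Ras, Raf, Mek and Erk 0 were called, with a median log2 change of 0.01. Map2k1, which encodes the kinase Mek1, had 2115 ± 261 against 1706 ± 208 (adjusted p = 0.292, limma). Of 18 feedback genes and early targets 0 were called, with a median of 0.09. The phosphatase gene Dusp6 and the inhibitor gene Spry2, both turned on by Erk, had log2 changes of 0.18 and 0.06, and Etv4 stayed at mean signals of 8.89 and 5.94 against 313 in dysplasia. Sftpc, whose promoter drives the transgene, had a mean signal of 22086 ± 8192 in transgenic and 21424 ± 4179 in non-transgenic tissue (log2 change 0.00). Probe sets of the transgene's own gene were not analysed here, so that transgene expression was not checked.

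Plasma proteins known from the liver made up a group of rises. Of 13 tested genes of this list 7 rose and 0 fell, against 1.59% higher and 0.121% lower over all genes tested. The median log2 change was 0.80, and 18 of its 31 members had no tested probe set. Apoa1, 1 of the 7, was called in 1 of 4 probe sets, at 37.2 ± 13.0 against 4.88 ± 3.35. Both of its means were below 100, and it passed the signal limit through dysplasia, where its mean was 363. The fibrinogen alpha chain gene Fga had signals of 271, 1017, 542, 262 and 288 on transgenic 1 to 5 and 1.68, 31.8, 26.4, 61.4 and 45.4 on non-transgenic 1 to 5. All non-transgenic values were at background, and transgenic 2 was highest (log2 change 2.52, standard error 0.34, adjusted p = 0.006, limma). The gamma chain gene Fgg followed the same order at the top, with 462, 1177, 601, 435 and 311 against 31.6, 69.1, 68.9, 138 and 65.5 (log2 change 2.30, standard error 0.31, adjusted p = 0.00589, limma). Both calls held in every fit without 1 array, with a highest adjusted p of 0.024. The beta chain gene Fgb, which lies beside them on chromosome 3, had a signal between 0.708 and 2.19 on all 15 arrays and was not tested. It was read by 1 probe set, which cannot tell a silent gene from a transcript that the probe set does not detect. The dysplasia arrays had 259 to 396 for Fga and 399 to 527 for Fgg, and the signals of the transgenic unaltered arrays overlapped both ranges.

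The 200 bases before the start of the 3 fibrinogen chain genes are shown as a description. A link between these sequences and the signals was not tested. They are RefSeq promoter sequences of mouse build GRCm38.p6, chr3:83025953-83026152 on the plus strand for Fga, chr3:83007524-83007723 on the plus strand for Fgg and chr3:83049864-83050063 on the minus strand for Fgb, written 5′ to 3′ along each gene. Capitals mark matches, on either strand, to the letters TTGCNNAA (C/EBP), TTCNNNGAA (Stat), TGANTCA (AP-1), TTAATNATT (Hnf1) or TCACNCCAC (sterol element), where N is any base.
Fga: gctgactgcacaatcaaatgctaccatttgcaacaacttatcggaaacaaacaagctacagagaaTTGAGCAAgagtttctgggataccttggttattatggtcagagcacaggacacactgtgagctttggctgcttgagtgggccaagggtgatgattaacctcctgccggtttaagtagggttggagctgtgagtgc
Fgg: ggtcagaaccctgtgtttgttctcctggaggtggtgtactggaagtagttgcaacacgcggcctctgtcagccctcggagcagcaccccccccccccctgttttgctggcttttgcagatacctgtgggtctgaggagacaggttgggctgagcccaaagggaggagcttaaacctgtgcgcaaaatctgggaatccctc
Fgb: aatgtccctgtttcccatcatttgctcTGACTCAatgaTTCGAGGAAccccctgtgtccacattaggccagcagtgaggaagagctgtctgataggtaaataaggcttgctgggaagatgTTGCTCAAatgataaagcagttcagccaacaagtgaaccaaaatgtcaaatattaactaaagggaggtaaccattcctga
Fga held 1 match, to C/EBP, from 135 to 128 bases before the start. Fgb held a match to AP-1 from 173 to 167, to Stat from 162 to 154 and to C/EBP from 80 to 73 bases before the start, and Fgg held no match to these letters. The 3 matches of Fgb did not overlap each other. Of 32851 promoters, 7.47% held the C/EBP letters in the same window, 5.49% the Stat letters, 5.48% the AP-1 letters, 1.13% the Hnf1 letters and 0.858% the sterol letters. The windows of Lrg1, Lcn2 and Slpi, which rose and are described next, held none of them.

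Other plasma protein genes were called from low and high signals. Itih4, an inter-alpha-trypsin inhibitor heavy chain, had signals of 7646, 8342, 7892, 7720 and 6428 in transgenic and 2218, 2649, 2754, 4015 and 3432 in non-transgenic tissue. The lowest transgenic array lay well above the highest non-transgenic array (log2 change 1.35, standard error 0.15, adjusted p = 0.00245, limma), and dysplasia had 2506 to 4681. Fetub, the gene of fetuin B, rose from 58.8 ± 11.5 to 305 ± 107, and Afp, the gene of alpha-fetoprotein, from 139 ± 36.6 to 353 ± 97.1, though in 1 of 3 Afp probe sets. Fgl1, a fibrinogen-like protein, rose from 17.5 ± 16.4 to 160 ± 80.9. Among coagulation genes, Proz, a vitamin K-dependent cofactor, rose from 152 ± 70.0 to 450 ± 113, and F10, coagulation factor X, from 190 ± 23.8 to 375 ± 93.2. The Proz call held in 6 and the F10 call in 2 of the 10 fits without 1 array (adjusted p = 0.0713 and 0.0928 without non-transgenic 3). Albumin was not called, with 50.2 ± 11.8 against 64.6 ± 9.74. Of 8 tested transcription factors of liver and gut only Elf3, an epithelial Ets factor, was called (493 ± 46.2 against 331 ± 39.1), in 3 of the fits without 1 array (adjusted p = 0.0982 without transgenic 3), while Hnf4a stayed at 41.5 and 28.5. With array number as a block Foxp2, a forkhead factor, was also called (log2 change 0.50, adjusted p = 0.0383, limma). It was not called without the block (adjusted p = 0.0694) or with log2 Xist as a covariate (adjusted p = 0.163, limma).

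Acute phase and complement genes also included calls. Of 19 tested acute phase and Stat3 genes 4 rose and 0 fell (median log2 change 0.24), against 1.59% and 0.121% of all genes tested. Lrg1, a secreted leucine-rich glycoprotein, had 8793, 10104, 8367, 7724 and 5849 in transgenic and 2640, 2308, 2655, 2768 and 2268 in non-transgenic tissue. The groups were far apart in relation to their spread (ratio 3.23, log2 change 1.65, standard error 0.14, adjusted p = 0.000335, limma). Lcn2, the iron-carrier binding protein lipocalin 2, rose 2.12-fold, from 4621 ± 951 to 9801 ± 1162. Haptoglobin (Hp) rose 1.70-fold and the protease inhibitor Slpi 1.71-fold, calls that held in 9 and 7 of the 10 fits without 1 array (adjusted p = 0.0519 without non-transgenic 1 and 0.0544 without transgenic 3, limma). Stat3 (4106 ± 339 against 3337 ± 181), Socs3 and Cebpb were not called. Of 15 complement genes Cfi, the factor that cleaves C3b, rose from 135 ± 21.6 to 448 ± 214, and C6, a part of the membrane attack complex, from 769 ± 91.7 to 1233 ± 101. The Cfi call held in 6 of the 10 fits without 1 array (adjusted p = 0.0736 without transgenic 3).

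Macrophage markers were the list with the most calls by number, 8, while the smaller plasma protein list had 7 of 13. Of 21 tested macrophage markers 8 rose and 0 fell, with a median log2 change of 0.65. Over all genes tested 1.59% rose and 0.121% fell. Gpnmb, a glycoprotein of lipid-laden macrophages, had signals of 1265, 1644, 1447, 1287 and 1054 on transgenic 1 to 5 and 495, 480, 496, 565 and 651 on non-transgenic 1 to 5. Non-transgenic 5, the highest of its group, still lay below transgenic 5, the lowest of the other (log2 change 1.24, standard error 0.13, adjusted p = 0.0014, limma). For the mannose receptor gene Mrc1 the signals were 3972, 5301, 4496, 4093 and 3152 against 1683, 1810, 1840, 2351 and 2380, again without overlap (log2 change 1.04, standard error 0.15, adjusted p = 0.00786, limma), and dysplasia had 1928 to 2283. The lysosomal protein gene Cd68 rose 2.03-fold, Fcgr1, an Fc receptor, 1.89-fold, the protease gene Ctsk 2.76-fold, and Plin2, which coats lipid droplets, 1.59-fold (the last in 9 of the fits without 1 array, adjusted p = 0.053 without non-transgenic 3). Siglecf, a lectin of alveolar macrophages, rose from 549 ± 194 to 1236 ± 299, and its call held in 4 of the 10 fits without 1 array (adjusted p = 0.109 without transgenic 3) and not with the block (adjusted p = 0.0695, limma). Mpeg1, the gene of a pore-forming protein of macrophages, rose 1.49-fold, and its call held in 1 of these fits (adjusted p = 0.12 without non-transgenic 3) and not with the block (adjusted p = 0.072, limma). Other defining markers were not called: Chil3 had a log2 change of 0.23, Lyz2 0.03 and Marco -0.65, and Csf1r had signals of 9107 and 9095. The summed signal of the 21 markers ran from 87638 to 115054 in transgenic and from 62525 to 89382 in non-transgenic tissue, ranges that overlap. The part of macrophage number in the rises of lysosome, lipid and plasma protein genes was not tested.

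All 22 tested lysosome genes had a log2 change above 0 (median 0.30), against 5663 of all 11604 genes tested. Of the 22, 2 rose at the threshold, against 1.59% of all genes tested. Atp6v0d2, a subunit of the lysosomal proton pump, had 3015, 3601, 3785, 3176 and 2452 against 868, 1261, 1052, 1399 and 1814. It was higher on all transgenic arrays (log2 change 1.32, standard error 0.19, adjusted p = 0.00743, limma), and its dimmer probe set was also called, in 6 of the fits without 1 array (adjusted p = 0.0625 without non-transgenic 3). Ctsa, cathepsin A, rose 1.38-fold, a call that held in 1 of the 10 fits without 1 array (adjusted p = 0.121 without transgenic 3) and not with array number as a block (adjusted p = 0.0639, limma). Mcoln3, an endolysosomal ion channel, rose from 322 ± 53.4 to 951 ± 205, with 480 to 527 in dysplasia. Of 26 genes of phospholipid and triglyceride metabolism Mfsd2a, Fabp1 and Abcg1 rose and Pon1 fell. Mfsd2a, a transporter of lysophosphatidylcholine, had 1287, 1699, 1262, 1238 and 1261 against 250, 412, 323, 438 and 316. Apart from transgenic 2 the transgenic arrays lay within 1238 to 1287 (log2 change 1.83, standard error 0.14, adjusted p = 0.00029, limma). The fatty acid binding protein gene Fabp1 rose 1.87-fold in 1 of its 2 probe sets. Abcg1, which exports cholesterol, rose 1.74-fold, a call that held in 6 of the fits without 1 array (adjusted p = 0.0713 without non-transgenic 3).

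Genes of fatty acid and sterol synthesis included a few calls. Of 31 tested genes 3 rose (against 1.59% over all genes) and 0 fell. A log2 change above 0 was found in 27 of them (median 0.28), against 5663 of all 11604 genes tested. Me1, malic enzyme, which supplies NADPH for fatty acid synthesis, had 2715, 2815, 2598, 2310 and 2204 against 1322, 1277, 1566, 1404 and 1230. Its groups were well apart (log2 change 0.87, standard error 0.10, adjusted p = 0.00259, limma). Fasn, fatty acid synthase, rose 1.54-fold, from 5347 ± 568 to 8261 ± 751. Lss, lanosterol synthase of the cholesterol pathway, rose 1.89-fold, a call that held in 2 of the 10 fits without 1 array (adjusted p = 0.105 without non-transgenic 3). Cyp51, Hmgcs1 and Sqle of the same pathway had log2 changes of 0.52, 0.37 and 0.35 without a call. The lipid droplet gene Cidec rose from 123 ± 16.6 to 244 ± 49.4, in 7 of the fits without 1 array (adjusted p = 0.0556 without transgenic 3), while the adipocyte genes Fabp4 and Lipe had log2 changes of -0.18 and -0.02.

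**Figure D3:**
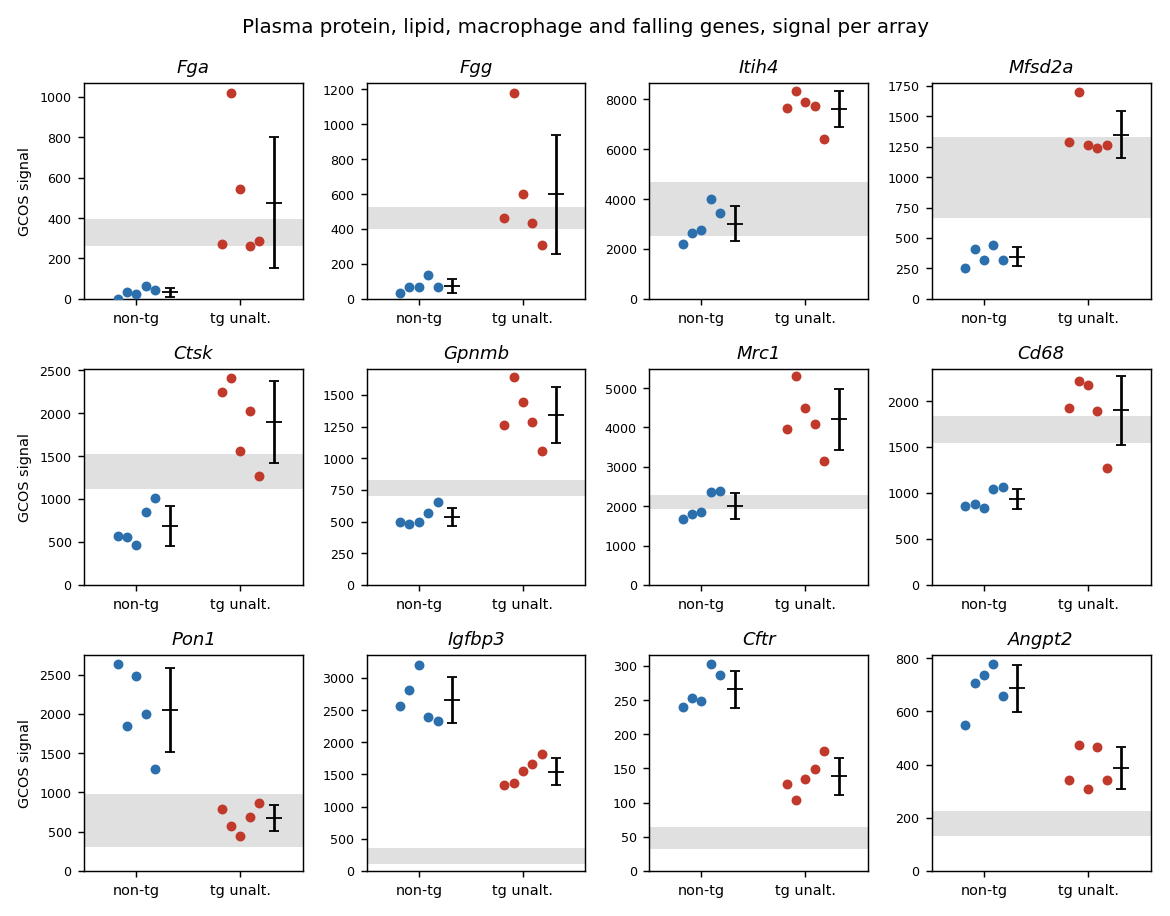
Signal per array (linear axis from 0) of 12 genes in non-transgenic (blue) and transgenic unaltered tissue (red), with the mean and SD of 5 arrays in black and the range of the 5 dysplasia arrays as a grey band. Fga, Fgg, Itih4, Mfsd2a and the macrophage genes were higher in transgenic unaltered tissue, and for Itih4, Gpnmb and Mrc1 all red points lie above the dysplasia band. Pon1, Igfbp3, Cftr and Angpt2 were lower.

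Markers of type 2 cells rose in a few members while the surfactant genes showed no call. Of 20 tested markers 3 rose, 0 fell and 19 had a log2 change above 0 (median 0.20). Over all 11604 genes tested 1.59% rose, 0.121% fell and 5663 lay above 0. Muc1, a mucin of the apical membrane, had 7850, 7224, 7209, 6802 and 5826 against 2748, 3346, 4021, 4012 and 3879. All transgenic arrays were higher (log2 change 0.95, standard error 0.13, adjusted p = 0.00556, limma). Lrp2, the endocytic receptor megalin, was called in both of its probe sets, the brighter rising 2.16-fold. Ctsh, cathepsin H, which takes part in surfactant protein processing, rose 1.62-fold. Sftpb, Sftpd and Sftpa1 had log2 changes of 0.18, 0.14 and 0.04, and the lamellar body lipid pump gene Abca3 had 0.37 (adjusted p = 0.132, limma). The summed signal of the 20 markers was 204855 to 305800 in transgenic and 173956 to 221630 in non-transgenic tissue.

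Genes of injured alveolar epithelium and of tight junctions included further calls, where 1.59% of all genes tested rose and 0.121% fell. Of 16 tested genes of injured epithelium 5 rose and 0 fell (median 0.34), of which Lrg1 and Lcn2 also stand in the acute phase list. Krt18, a simple keratin, rose from 2519 ± 191 to 3655 ± 231, and Il33, an alarmin cytokine, from 3694 ± 738 to 6132 ± 752. The Il33 call held in 2 of the 10 fits without 1 array (adjusted p = 0.0926 without transgenic 3) and not with the block (adjusted p = 0.0597, limma). Glrx, glutaredoxin, rose 1.65-fold, with a call that held in 2 of these fits (adjusted p = 0.0951 without non-transgenic 3). Of 21 junction genes Cldn1, Cldn2, Cldn3 and Cldn7 rose and 0 fell. Cldn3 had 3542, 3206, 2996, 2624 and 2533 against 1493, 1619, 2058, 1914 and 1677 in 1 of its 4 probe sets, again without overlap (log2 change 0.75, standard error 0.12, adjusted p = 0.0138, limma). Cldn7 rose 1.45-fold and Cldn1 2.07-fold, calls that held in 2 and 5 of the fits without 1 array (adjusted p = 0.0655 without non-transgenic 4 and 0.0783 without transgenic 3), and that of Cldn1 did not hold with the block (adjusted p = 0.0639, limma). The tested connexin genes Gja1, Gjb1, Gjb2 and Gjb6 (log2 changes 0.38, 0.88, 0.39 and 0.42) and the tight junction scaffold Tjp1 (-0.21) were not called. Of the 27 members of the list 6 had no tested probe set that carries their name, the connexin gene Gja3 among them. Whether Gja3 differed between the groups was therefore not assessed.

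Other lung cells gave few calls. Over all 11604 genes tested 1.59% were called higher and 0.121% lower, and 5663 had a log2 change above 0. Of 18 type 1 cell markers Col4a3, a chain of basement membrane collagen, fell from 2264 ± 184 to 1585 ± 164, while Ager, Hopx and Aqp5 had log2 changes of 0.01, -0.03 and 0.29. The Col4a3 call held in 2 of the 10 fits without 1 array (adjusted p = 0.0959 without non-transgenic 3). All 9 club cell markers lay below 0 without a call (median -0.31), with Cyp2f2, a cytochrome of these cells, at 3608 ± 546 against 6498 ± 2386. Of 26 endothelial markers 0 were called and 25 lay below 0 (median -0.19). Of 10 smooth muscle and pericyte markers Myh11, a myosin of smooth muscle, fell from 498 ± 38.6 to 374 ± 16.5, a call that held in 0 of the fits without 1 array (adjusted p = 0.14 without transgenic 3) and not with the block (adjusted p = 0.0776, limma). Of 20 interferon response genes 19 lay below 0 and 0 were called (median -0.24), while with array number as a block Ifi27l2a and Rtp4 were called lower (log2 changes -0.80 and -0.54, adjusted p = 0.03 and 0.038, limma). With log2 Xist as a covariate these 2 genes were not called (log2 changes -0.35 and -0.31, adjusted p = 0.73 and 0.602, limma).

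Among 22 chemokines and cytokines, Cxcl17, Il18 and Csf2 rose, where 1.59% of all genes tested did. Il18, an inflammasome cytokine, had 2692, 2838, 3078, 2493 and 2644 against 1240, 1136, 1313, 1555 and 1915. Its lowest transgenic value exceeded the highest non-transgenic value (log2 change 0.94, standard error 0.13, adjusted p = 0.00786, limma), and dysplasia had 1526 to 1894. Csf2, the growth factor of alveolar macrophages, rose 1.52-fold, from 406 ± 39.9 to 616 ± 73.5, a call that held in 1 of the 10 fits without 1 array (adjusted p = 0.0755 without transgenic 3). Of 9 T and NK cell markers Cd2, an adhesion receptor, rose 1.65-fold, from 407 ± 36.7 to 670 ± 48.6, while Cd3d, Cd3e and Cd3g had log2 changes of -0.33, -0.26 and -0.20. Of 10 genes of MHC class II presentation Ctss, cathepsin S, rose 1.37-fold, a call that held in 0 of the fits without 1 array (adjusted p = 0.141 without non-transgenic 1) and not with the block (adjusted p = 0.0776, limma).

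No gene of the cell cycle lists was called, where over all genes tested 1.59% were called higher and 0.121% lower. Of 23 mitosis genes 22 had a log2 change above 0, with a median of 0.33, and 0 were called. Over all 11604 genes tested 5663 lay above 0. Ube2c, which marks mitotic exit, had 410 ± 79.9 against 253 ± 33.7, and Mki67 696 ± 71.7 against 496 ± 111. The adjusted p of Ube2c was 0.0806, with 0.038 with array number as a block and 0.255 with log2 Xist as a covariate (limma). Of 22 replication genes 17 lay above 0 (median 0.18) and 0 were called. Of 16 p53 targets and Cdk inhibitors 0 were called, with Cdkn1a at a log2 change of 0.43 and Cdkn2a at 0.52. Egr2, an early growth response factor, rose 1.84-fold, and Hmox1, heme oxygenase, rose 1.70-fold, each the single call among 14 immediate early and heat shock genes and 15 Nrf2 targets. These calls held in 7 and 9 of the fits without 1 array (adjusted p = 0.0704 without transgenic 3 and 0.0511 without non-transgenic 3). Of the 44 lists 20 held no called gene.

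**Figure D4:**
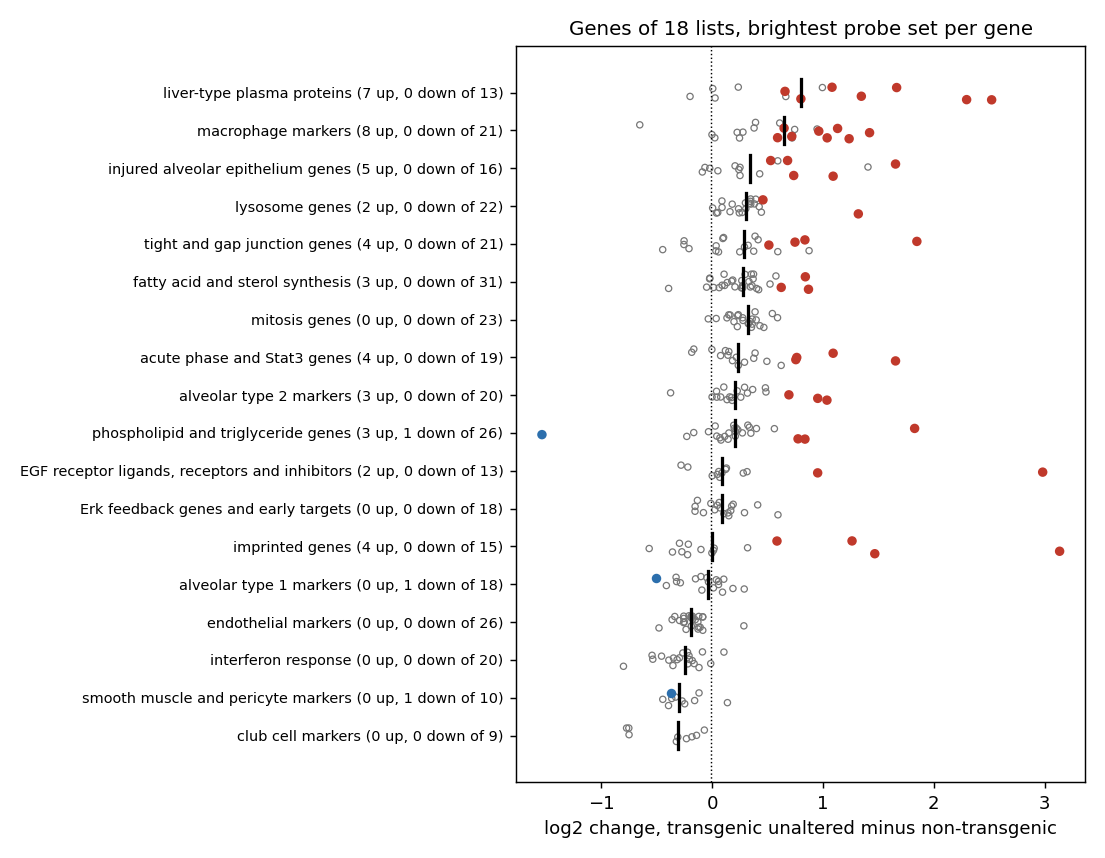
Log2 change of the tested genes of 18 lists, by the brightest probe set of each gene. Filled red and blue points were called higher and lower, open circles were not called, black bars are list medians and the dotted line is the median of all genes tested, which lies close to 0. Plasma protein and macrophage genes lie farthest to the right, with medians of 0.80 and 0.65.

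Falls were few and smaller than the leading rises. Pon1, the gene of the esterase paraoxonase, had signals of 793, 575, 440, 686 and 868 on transgenic 1 to 5 and 2633, 1841, 2479, 1996 and 1300 on non-transgenic 1 to 5. The highest transgenic value lay below the lowest non-transgenic value (ratio 0.328, log2 change -1.53, standard error 0.21, adjusted p = 0.00685, limma), with changes of -1.96 between females and -1.80 between males. Bex1, a small adaptor protein of neurons, fell from 682 ± 34.6 to 346 ± 72.8, and transgenic 5 was the highest of its group at 474. Igfbp3, a carrier of insulin-like growth factors, had 1332, 1366, 1546, 1657 and 1820 against 2556, 2817, 3200, 2391 and 2323. These did not overlap (log2 change -0.76, standard error 0.12, adjusted p = 0.0109, limma), and dysplasia had 110 to 348. The chloride channel gene Cftr had 128, 103, 135, 149 and 176 against 240, 253, 248, 302 and 286, again apart (log2 change -0.76, standard error 0.11, adjusted p = 0.00961, limma). Each of these 4 calls held in all 10 fits that left 1 array out. Angpt2, a ligand of the endothelial receptor Tie2, fell from 686 ± 88.0 to 387 ± 78.5, and Tfpi, the inhibitor of tissue factor, from 358 ± 31.2 to 207 ± 43.1 in 1 of its 4 probe sets. Both calls held in 5 of the 10 fits (adjusted p = 0.0753 and 0.0647 without non-transgenic 3). Odf3b, which encodes an outer dense fibre protein, Kcns3, a potassium channel subunit, and Zfp959, a zinc finger gene, had ratios of 0.487, 0.617 and 0.624, and their calls held in 5, 7 and 2 of the 10 fits (adjusted p = 0.0713 and 0.063 without non-transgenic 3 and 0.118 without non-transgenic 1). Ifi213, an interferon-inducible gene, Cckar, a cholecystokinin receptor, and Abcb1a, a drug efflux pump, had ratios of 0.63, 0.46 and 0.68, and Ifi213 held in 2 of the fits (adjusted p = 0.109 without non-transgenic 3). Abcb1a and Cckar were not called with array number as a block (adjusted p = 0.0575 and 0.056, limma), and each held in 1 of the 10 fits without 1 array (highest adjusted p 0.118 without non-transgenic 1 and 0.1 without transgenic 3). Odf3b was called in 1 of 3 probe sets, and Igfbp3, Abcb1a and Col4a3, like Mirg, Me1, Lss, Abcg1, Ctsh, Glrx and Egr2 among the rises, in 1 of 2.

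Because male mice prevailed among the transgenic and female mice among the non-transgenic arrays, the leading genes were also read with log2 Xist as a covariate. Dlk1 and Ereg then had log2 changes of 3.14 and 2.97 (adjusted p = 0.00219 for each, limma), and Dmkn, St8sia6, Mfsd2a, Gkn2, Cxcl17 and Itih4 had a highest adjusted p of 0.0105. Fga and Fgg had changes of 2.94 and 2.60 (adjusted p = 0.0221 and 0.0281, limma), and Pon1 had -1.90 (adjusted p = 0.00933, limma). The macrophage genes Gpnmb, Mrc1 and Cd68 stayed called, with a highest adjusted p of 0.0403, whereas Ctsk, Fcgr1, Plin2, Siglecf and Mpeg1 did not (adjusted p = 0.102, 0.0895, 0.119, 0.0795 and 0.179, limma). Of the genes called lower, Igfbp3 and Cftr had changes of -0.74 and -0.72 that missed the threshold (adjusted p = 0.096 and 0.0884, limma). In all, 38 of the 79 named calls held with this covariate and 41 did not. Among the calls lost were Fasn, Krt18, Afp and Cfi (adjusted p = 0.0786, 0.0895, 0.074 and 0.0838, limma). Hp, Slpi, Cldn3 and the brightest probe set of Meg3 were lost as well (adjusted p = 0.0976, 0.0913, 0.0529 and 0.118, limma). The Y-linked Eif2s3y and Kdm5d and Xist itself had large log2 changes of 2.97, 2.17 and -4.15. They were not called between the groups, each of which held both sexes. Without transgenic 2, the array whose entries conflict, 138 probe sets were higher and 9 lower, and 8 passed the stricter limits.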

How the data were processed

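The authors made the deposited intensity values: GCOS summarised each probe set to a signal, and each array was scaled to a target of 500 (version not stated in those labels). These deposited signals were used without further normalization. Of 45101 probe sets 64 controls were left out, and the array annotation, checked against a RefSeq gene table, gave 1 gene to 34945 of the rest. Areg was named from a supplementary table of the study, and some genes are not reported. Groups were compared unpaired with limma 3.58.1 in R 4.3.3, with Benjamini-Hochberg adjustment over all tested probe sets, and the fit was tested on simulated data. The 10 arrays come from 10 mice, and their number limits the precision.

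Gene lists, 44 in all, were described by the brightest tested probe set of each gene. Named genes were those past the stricter limits, the 25 largest rises and 12 largest falls, up to 6 called members of each list (up to 2 more with the smallest p where fewer than 2 were called), and all tested members of the EGF receptor, promoter and sex lists. Where members outside this rule are named, they were chosen after their values were seen. The arrays, members and lists were chosen with earlier results of these data known. Arrays of the same number in both groups, from different mice, had deviations from their group means that correlated at 0.135 to 0.793 (mean 0.452, against -0.108 for different numbers), so that the number was used as a block in an alternative fit. Because deviations are centred within each group, the mean for different numbers is not an independent baseline. Correlations of different numbers ran from -0.681 to 0.572, and 4 of the 10 arrays correlated best with their own number. The alternatives changed the offset, scaling, signal limit, groups fitted, variance trend, test or covariates, or left out arrays.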

Additional observations from a re-analysis of the deposited data

Results flagged for a closer look

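Among 158 groups of 5 signals, those of the named probe sets that were called, 9 held an array whose gap to the nearest other array exceeded Dixon's critical value of 0.71 of the range. Chance gives this in about 1 of 20 groups, and no explanation was tested.

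In transgenic unaltered tissue, transgenic 2 was high for Mfsd2a (1699, with 1238 to 1287 on the others). Transgenic 1 was high for both Abcg1 (8113, with 5084 to 5660) and Plin2 (9413, with 6713 to 7046). Transgenic 5 was low for Cd2 (585.5, with 677.6 to 704.5) and high for Bex1 (473.9, with 297.5 to 335.5).

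In non-transgenic tissue, non-transgenic 3 was low for Glrx (1131, with 1211 to 1241) and non-transgenic 2 low for Odf3b (106.2, with 160.3 to 170.9). Non-transgenic 4 was high for Cd2 (471.1, with 383.2 to 402.2) and for Apoa1 (10.57, with 2.312 to 4.572), the latter at background. In all of these genes the transgenic and non-transgenic arrays did not overlap.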

How the results depend on the processing

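The comparison gave 254 higher and 18 lower calls, with 9 higher and 0 lower past the stricter limits. Leaving out 1 array gave 112 to 266 higher and 4 to 25 lower calls, with 3 to 8 and 0 to 1 past the stricter limits. The lowest count of higher calls came without transgenic 3, the only female transgenic mouse, and the lowest count of lower calls without non-transgenic 3. With array number as a replicate block 276 were higher, 53 lower and 0 past the stricter limits. With log2 Xist as a covariate 106 were higher, 4 lower and 0 past the stricter limits. With the actin ratio as a covariate 434 were higher and 72 lower. A SAM test gave 685 higher and 10 lower, with 88 and 4 past the stricter limits. Fitting all 3 groups together gave 36 higher past the stricter limits. Leaving out number 5 of both groups, chosen after seeing the data, gave 2. The causes were not tested. Other offsets, scalings and signal limits and a variance trend moved these counts by no more than 1.5 times, and no named call changed direction under any alternative run. Of 79 named calls, 41 missed the threshold with the Xist covariate and 9 with the block (which also added 4 among the other named probe sets). With the other offsets, scalings, limits, fits and tests 0 to 11 did so. Each fit without 1 array lost 12 to 28 of the named calls, most without non-transgenic 1 and without non-transgenic 3. Leaving out number 5 of both groups lost 16. Of all 272 calls, 106 were kept in each of the 10 fits without 1 array. Each group holds 5 arrays. Non-transgenic means below 100 limit the size of ratios for Dlk1, Ereg, Fga, Fgg, Gkn2, Cldn2, Cd177, Fetub and Fgl1, among others.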

Other observations

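The genes in this section lie outside the rule for named genes and were chosen after their values were seen. Several single genes known from myeloid cells were called higher. Fcgr3, an Fc receptor, rose from 1136 ± 222 to 2076 ± 182, Clec7a, the beta-glucan receptor dectin-1, from 4536 ± 1015 to 8347 ± 1087, and Tlr2, a receptor of bacterial lipoproteins, from 629 ± 72.0 to 1026 ± 192 (highest adjusted p 0.0359, limma). Csf2rb and Csf2rb2, the beta chains of receptors for Csf2 and related cytokines, rose 1.53-fold and 1.71-fold. Fcgr3 held in all 10 fits without 1 array, Clec7a in 4, Tlr2 in 3, Csf2rb in 2 and Csf2rb2 in 1. The highest adjusted p was 0.0706, 0.113 and 0.124 without transgenic 3 for Clec7a, Csf2rb and Csf2rb2 and 0.109 without non-transgenic 1 for Tlr2. With array number as a block Tlr2, Csf2rb and Csf2rb2 were not called (adjusted p = 0.0622, 0.0526 and 0.0639, limma).

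Among further secreted proteins, F7, coagulation factor VII, rose from 924 ± 181 to 1870 ± 268 and Chia1, an acidic chitinase, from 2226 ± 266 to 4318 ± 433. Pglyrp1, which binds bacterial peptidoglycan, rose from 378 ± 82.2 to 969 ± 151. Hdc, the enzyme that makes histamine, was called in both probe sets, the brighter rising from 1350 ± 206 to 3113 ± 603. Ltc4s, leukotriene C4 synthase, rose from 282 ± 47.3 to 784 ± 238, and Alox5ap, the activating protein of a lipoxygenase, from 2398 ± 187 to 3898 ± 442. Tnfsf9, a ligand that costimulates T cells, rose from 289 ± 65.3 to 739 ± 96.5. The epithelial adhesion gene Epcam rose from 1563 ± 140 to 2465 ± 277. The highest adjusted p of these calls was 0.0125 by limma, and they held in every fit without 1 array, counting the brighter probe set of Hdc.

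Bright and dim probe sets of a gene did not always share a call. The brightest probe set of Scd1, a fatty acid desaturase, had 25320 against 23231 without a call, while another had 4617 ± 1671 against 2001 ± 234 and was called, in 4 of the fits without 1 array (adjusted p = 0.0785 without non-transgenic 3). For Npc2, a cholesterol carrier of lysosomes, the brightest had 25845 against 19482 without a call, while another rose from 1885 ± 240 to 3519 ± 589.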
